A study of Mus musculus with 47 samples.

Results

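Mef2c and 8 genes that mark excitatory neurons of the cerebral cortex and hippocampus (Slc17a7, Camk2a, Ddn, Tbr1, Neurod6, Neurod2, Nrgn and Chrm1) were followed in mRNA of the hypothalamus, a region that lies outside the forebrain structures these genes mark. The genes were chosen by their levels on Day 42, where 1 library, Sample_11, stood apart, so the Day 42 values below are a description and carry no test. Of the 9 genes, 7 had a row among the 14221 genes of the count table, and Neurod6 and Neurod2 were not analysed here. All 47 mice were male ob/ob mice, which lack leptin, labelled as 11 weeks of age, and gave 1 strand-specific mRNA library each. They received a single injection into a cerebral ventricle (icv) of 3 µg FGF1, a fibroblast growth factor, or of vehicle, and hypothalami were taken 1, 5 or 42 days later. FGF1 was given to 10 mice of Day 1, 9 of Day 5 and 5 of Day 42. Vehicle was given to 4 mice of Day 1, 7 of Day 5 and 5 of Day 42 that are labelled non-diabetic and pair-fed to the FGF1 mice, and to 7 further mice of Day 5 labelled diabetic and pair-fed. All mice carry the same leptin mutation, so these groups hold no lean control, and the tissue was a punch from a thick coronal slice that could take in neighbouring regions.

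Excitatory neurons of the cortex and hippocampus load glutamate into synaptic vesicles through VGLUT1, the product of Slc17a7, whereas most excitatory neurons of the hypothalamus and thalamus use VGLUT2, the product of Slc17a6. Tbr1, Neurod2 and Neurod6 encode transcription factors that act in the development of cortical excitatory neurons, and Mef2c encodes a transcription factor that acts in activity-dependent gene expression and synapse number. Camk2a encodes the alpha subunit of calcium/calmodulin-dependent kinase II, Nrgn encodes neurogranin, which binds calmodulin in dendritic spines, Ddn encodes dendrin of the postsynaptic side, and Chrm1 encodes the M1 muscarinic acetylcholine receptor. None of these genes is exclusive to the forebrain, and Mef2c is also expressed in microglia and endothelial cells.

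RefSeq promoter windows (GRCm38.p6, 250 bases before to 50 after a transcription start) were found for 6 of the 9 genes. Windows are shown for 4 genes that were high together in Sample_11, so that the sequence at their starts can be compared. The search covered both strands for CAGATG, an E-box bound by NEUROD factors, AGGTGTGA, a T-box site, and CTANNNNTAG, a MEF2 site. Among 32851 windows of the same length, 17.2% held the E-box, 1.28% the T-box site and 3.69% the MEF2 site. Capitals mark a match, and each sequence is written 5′ to 3′ on the strand of its gene. The Mef2c windows lie on the plus strand at chr13:83503784-83504083, at the annotated start of the gene, and at chr13:83573357-83573656, at a downstream start. The Slc17a7 window is chr7:45163671-45163970 (plus strand), that of Tbr1 is chr2:61804203-61804502 (plus strand), and that of Nrgn is chr9:37552696-37552995 (minus strand).
Mef2c, gene start: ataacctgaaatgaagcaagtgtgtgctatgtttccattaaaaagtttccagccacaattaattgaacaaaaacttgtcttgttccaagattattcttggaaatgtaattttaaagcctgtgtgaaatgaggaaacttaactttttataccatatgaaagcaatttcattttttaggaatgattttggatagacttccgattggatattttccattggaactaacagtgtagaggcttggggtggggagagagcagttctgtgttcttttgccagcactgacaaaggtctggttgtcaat
Mef2c, downstream start: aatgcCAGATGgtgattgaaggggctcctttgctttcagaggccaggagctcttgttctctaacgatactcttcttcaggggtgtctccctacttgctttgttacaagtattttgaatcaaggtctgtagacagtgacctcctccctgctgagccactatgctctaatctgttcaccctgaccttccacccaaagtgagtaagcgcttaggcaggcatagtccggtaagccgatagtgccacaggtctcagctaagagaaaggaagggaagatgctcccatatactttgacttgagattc
Slc17a7: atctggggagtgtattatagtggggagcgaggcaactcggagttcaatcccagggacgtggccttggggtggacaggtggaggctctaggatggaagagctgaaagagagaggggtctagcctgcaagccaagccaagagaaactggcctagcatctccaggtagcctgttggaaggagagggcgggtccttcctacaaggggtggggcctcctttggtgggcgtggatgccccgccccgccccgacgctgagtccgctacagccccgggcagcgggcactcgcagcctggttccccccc
Tbr1: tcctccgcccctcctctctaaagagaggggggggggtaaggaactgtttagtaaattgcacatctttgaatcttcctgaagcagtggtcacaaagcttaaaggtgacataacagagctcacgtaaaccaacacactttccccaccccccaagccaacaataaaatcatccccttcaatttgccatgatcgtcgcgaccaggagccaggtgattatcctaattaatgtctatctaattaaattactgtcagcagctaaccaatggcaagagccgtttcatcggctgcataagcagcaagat
Nrgn: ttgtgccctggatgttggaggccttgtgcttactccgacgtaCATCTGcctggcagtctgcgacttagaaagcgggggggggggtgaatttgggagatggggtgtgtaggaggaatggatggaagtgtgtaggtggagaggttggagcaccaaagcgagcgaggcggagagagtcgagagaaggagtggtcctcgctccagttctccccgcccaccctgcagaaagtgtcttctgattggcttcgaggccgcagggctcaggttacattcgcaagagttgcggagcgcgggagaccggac

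The E-box was found once in the downstream Mef2c window, once in that of Nrgn and once in that of Neurod2. It was in no other of the 8 windows taken. The T-box and MEF2 sites matched in 0 of the 8. A missing match says only that these letters are not in the window. GC content ran from 35.7% at the first Mef2c start to 63.7% at Slc17a7, beside a median of 52.7% over all windows.

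In GENCODE annotation of GRCm38, Mef2c spans chr13:83504034-83667080 (plus strand), Slc17a7 chr7:45163949-45176142 (plus), Tbr1 chr2:61802930-61814114 (plus) and Nrgn chr9:37544492-37552904 (minus). Ddn lies at chr15:98803777-98809490 (minus), where its exons overlap those of B130046B21Rik on the other strand. Chrm1 lies at chr19:8663789-8683587 (plus), where an exon overlap with Gm22820 on the other strand is annotated. How strand was used in counting is not given in the sources used here, so reads in these overlaps could belong to either gene. Camk2a spans chr18:60925618-60988152 (plus). Values sum reads over a whole gene and do not separate exons, introns or UTRs.

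Total counts per library ran from 1243280 to 47082403 on Day 1, 7579695 to 30009258 on Day 5 and 19416026 to 43934003 on Day 42. All libraries of a day share 1 of 3 preparation codes. A difference between days therefore cannot be told apart from one between preparations, and FGF1 and vehicle mice of a day were prepared under the same code. Levels are CPM, the counts of a gene scaled to a common library total after TMM normalization. Sample_11 (FGF1 replicate 11, Day 42) had 237 genes over 2-fold above the mean of the other libraries of its group and 67 over 2-fold below, among genes of at least 5 CPM. The other 46 libraries had 0 to 144 above and 0 to 211 below. Markers of the hypothalamus were present in every group, and their summed level over 22 genes ran from 519 to 1857 CPM. In bulk tissue, more cells of a type cannot be told apart from more RNA per cell.

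On Day 42, Mef2c measured 43.4, 83.5, 65.1 and 122 CPM in the FGF1 libraries Sample_7 to Sample_10 and 404 CPM in Sample_11. The 5 vehicle libraries gave 66.8, 51.4, 53.4, 95.7 and 60.1 CPM. Outside Sample_11, the FGF1 and vehicle ranges overlapped, and Sample_11 was 3.30 times the highest of the other 9 libraries. The fitted log2 fold change of FGF1 against vehicle was 1.12 with all libraries and 0.26 without Sample_11.

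Slc17a7, the VGLUT1 transporter gene, had the widest gap to the mean of the other FGF1 libraries among these 7 genes. It measured 17.3, 74.6, 26.2 and 75.2 CPM in Sample_7 to Sample_10, 508 CPM in Sample_11, and 31.8, 42.8, 11.2, 70.1 and 88.6 CPM in the vehicle libraries. The level in Sample_11 was 10.5 times the mean of the other 4 FGF1 libraries, while those 4 lay within the vehicle range of 11.2 to 88.6 CPM. The fitted log2 fold change was 1.51 with Sample_11 and -0.02 without it, so its direction turned.

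Tbr1, the transcription factor gene with the lowest counts on this day, gave 4.31, 6.31, 8.82 and 12.6 CPM in Sample_7 to Sample_10, 57.0 CPM in Sample_11, and 3.12, 7.05, 7.94, 4.66 and 6.15 CPM with vehicle. Sample_9 and Sample_10 also lay above all vehicle libraries for this gene. Its log2 fold change of 1.61 became 0.48 without Sample_11.

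The genes of the postsynaptic side showed the same single high library. Ddn measured 34.6, 58.6, 70.8 and 62.0 CPM in Sample_7 to Sample_10, 449 CPM in Sample_11, and 34.2, 46.999, 43.3, 41.7 and 58.9 CPM with vehicle. Nrgn measured 20.9, 24.8, 48.2 and 21.1 CPM in Sample_7 to Sample_10, 217 CPM in Sample_11, and 16.5, 28.4, 23.6, 17.3 and 48.6 CPM with vehicle. The highest vehicle value of Nrgn was above all 4 other FGF1 libraries, and Sample_11 was 4.46 times that value.

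Camk2a, with the highest CPM of the 7 genes on this day, measured 458, 585, 570 and 564 CPM in Sample_7 to Sample_10, 1662 CPM in Sample_11, and 436, 519, 472, 541 and 555 CPM with vehicle. Chrm1, the receptor gene, measured 11.7, 14.6, 21.7 and 13.6 CPM in Sample_7 to Sample_10, 90.4 CPM in Sample_11, and 10.1, 15.0, 13.2, 10.2 and 18.1 CPM with vehicle. Camk2a had the smallest step, with Sample_11 at 3.05 times the mean of the other FGF1 libraries, and for the 7 genes this ratio ran up to 10.5. The log2 fold changes of Ddn, Nrgn, Camk2a and Chrm1 were 1.58, 1.29, 0.61 and 1.17 with Sample_11, and 0.33, 0.10, 0.11 and 0.21 without it.

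Over the 7 genes, the median log2 fold change on Day 42 was 1.29 with all libraries and 0.21 without Sample_11, beside -0.01 over all genes in both fits. Left out in turn, every other mouse of that day gave a median between 1.16 and 1.62. The share of all genes called on Day 42 was 0.0%, with 776 at an unadjusted p under 0.05 by edgeR's quasi-likelihood test (318 without Sample_11, with 0.0% called there too), 0 called by DESeq2 and 0 by limma with sample quality weights. Since these genes were chosen on this comparison, no test of them is given. Summed over the 7 genes, the level was 3387 CPM in Sample_11, 590 to 871 CPM in the other FGF1 libraries and 598 to 835 CPM with vehicle. Set against the other libraries of its own group, the median of the 7 genes was 2.86 higher (log2) in Sample_11. In the other 46 libraries it was between -1.55 and 0.51. The -1.55 is that of Sample_7, and for Sample_7 to Sample_10 the libraries compared with include Sample_11. Outside the FGF1 group of Day 42 the lowest value was -0.43, in Sample_12.

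**Figure D1:**
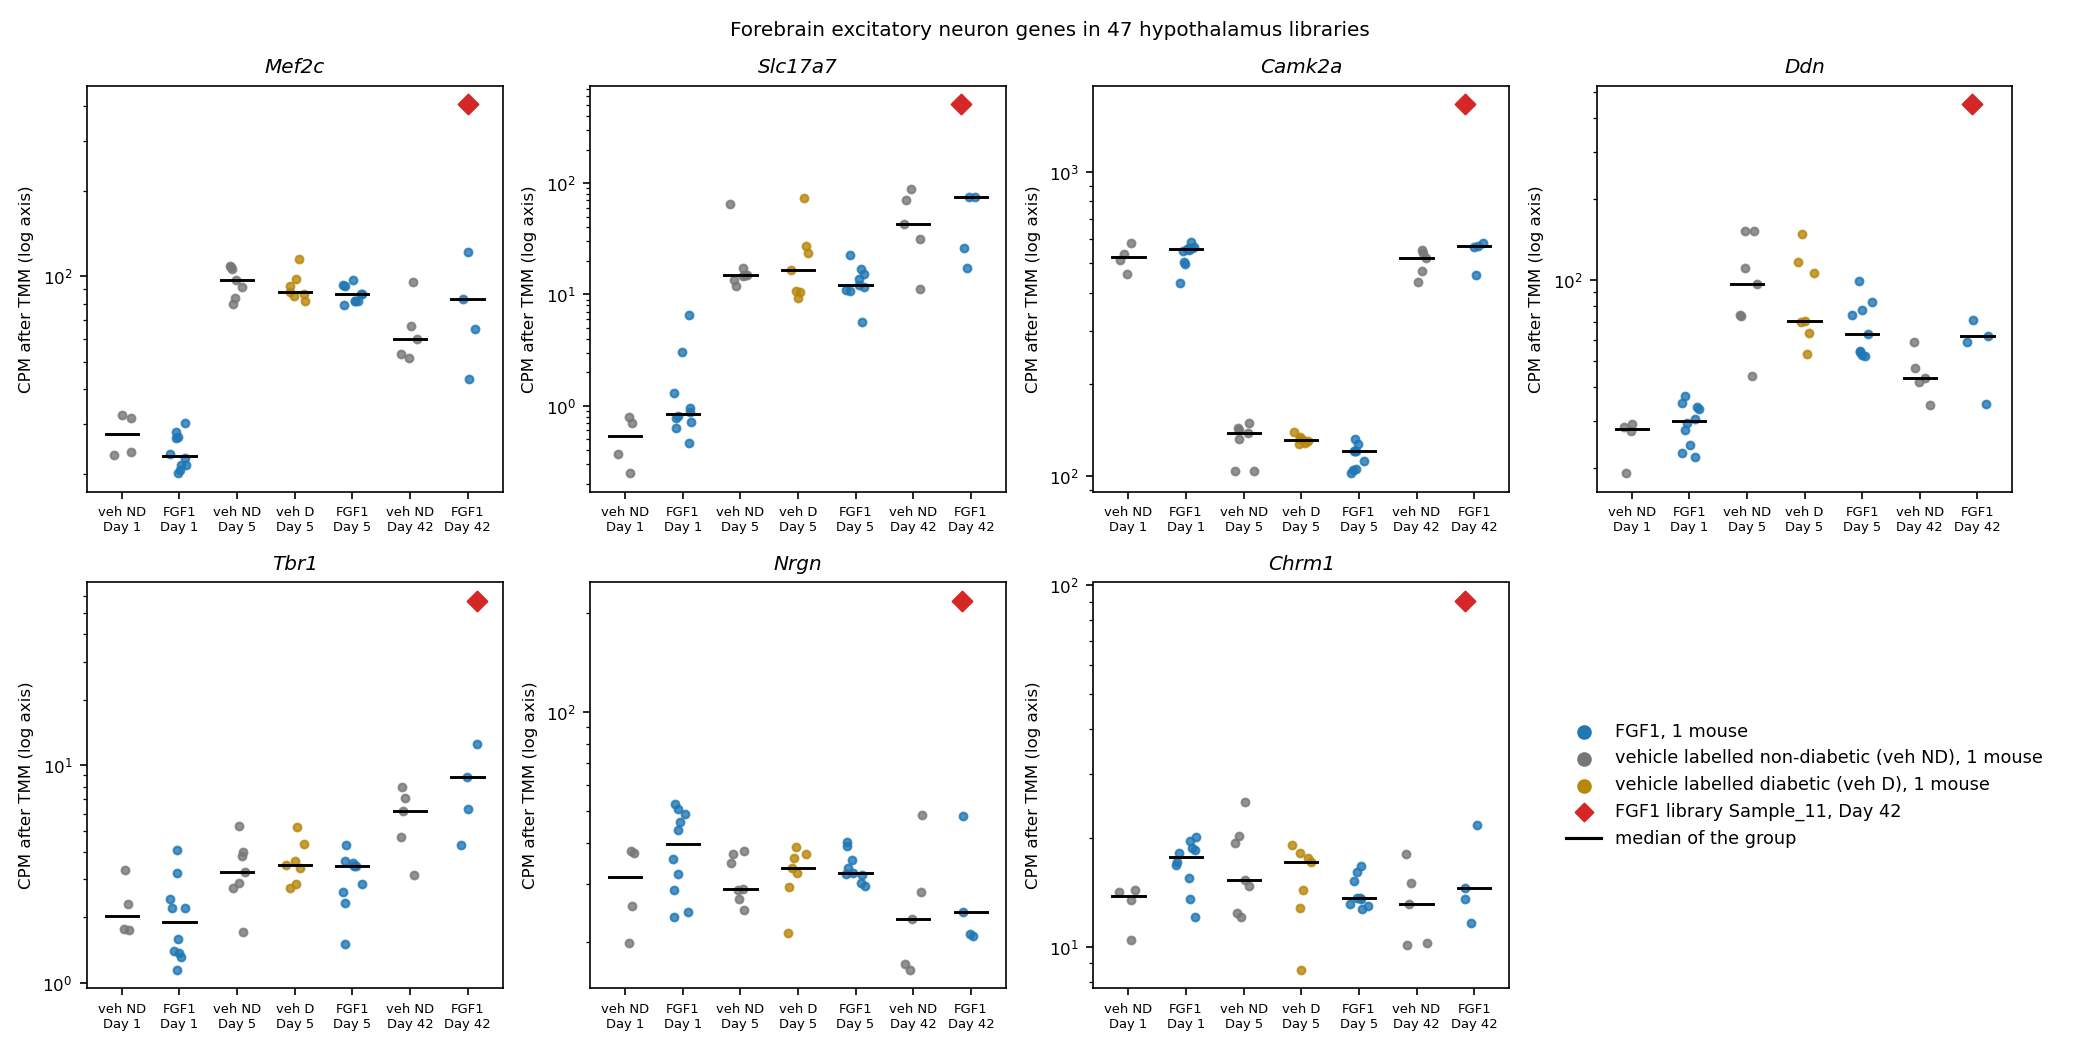
Levels of the 7 measured genes in 47 libraries, as CPM after TMM normalization on log axes, by group (points, 1 mouse each; black lines, group medians; ND and D, vehicle labelled non-diabetic and diabetic). Sample_11 (red diamond) lies above every other library for all 7 genes, with Mef2c at 404 CPM, and the FGF1 and vehicle points of a day otherwise overlap.

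Other genes known from cortical and hippocampal neurons were high in Sample_11 too. Of 26 such genes measured, 21 were highest in Sample_11 among the 10 libraries of Day 42, and of 24 genes of postsynaptic and calcium signalling 20 were, beside 15.6% of all genes. The median difference of Sample_11 from the mean of the other FGF1 libraries was 1.52 (log2) for the first list, 0.52 for the second and -0.01 for all genes. Mas1, a receptor gene known from the hippocampus, measured 10.4 CPM in Sample_11 and at most 0.84 CPM in the other 9 libraries. Itpka, a kinase gene of dendritic spines, measured 44.5 CPM against at most 7.13 CPM. Mas1 was picked as an example after its values were seen. Not all of the list was high: Rasgrf2, Rorb, Cux2, Cpne6 and Prox1 were not highest in Sample_11, and Rasgrf2 was lower there than in each of the other 9.

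The paralogs of the 7 genes divided. Among the MEF2 factors, Mef2d measured 201 CPM in Sample_11 against 134 to 166 CPM in the other 9 libraries, and Mef2a measured 234 CPM within their range of 135 to 289 CPM. Slc17a6, the VGLUT2 gene, measured 292 CPM in Sample_11, below the mean of 464 CPM of the other FGF1 libraries, and Slc17a8, the VGLUT3 gene, measured 7.39 CPM, within the range of the other libraries. Of the other kinase subunits, Camk2b measured 624 CPM and was highest in Sample_11, Camk2d measured 198 CPM and was lower there than in each of the other libraries, and Camk2g measured 305.1 CPM beside a highest other value of 304.9 CPM. Among muscarinic receptors, Chrm3 (73.1 CPM) and Chrm4 (9.88 CPM) were highest in Sample_11, whereas Chrm2 (36.1 CPM) and Chrm5 (3.78 CPM) lay within the ranges of the other libraries. Neurod1, the measured paralog of Neurod2 and Neurod6, stood at 5.11 CPM in Sample_11 and at most 4.06 CPM elsewhere, and its exons overlap those of Cerkl on the same strand. Of 6 genes for histone deacetylases and kinases that act on MEF2 proteins, 2 were highest in Sample_11, and their median difference was 0.07 (log2).

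Markers of other regions moved in Sample_11 as well. Of 22 hypothalamic neuron genes, 17 were lowest in Sample_11 among the 10 libraries, 0 were highest, and their median difference was -0.95 (log2). Their summed level was 531 CPM in Sample_11, 874 to 1464 CPM in the other FGF1 libraries and 1002 to 1504 CPM with vehicle. No gene of that list was at 0, and Pomc, the melanocortin precursor, stood lowest against its group, with 1.72 CPM in Sample_11 and 3.98 to 34.1 CPM in the other 9 libraries. Of 11 striatal neuron genes, 8 were highest in Sample_11, with a summed level of 925 CPM against 468 to 643 CPM in the other FGF1 libraries and 435 to 496 CPM with vehicle. Of 10 thalamic genes 0 were highest, and their sum of 820 CPM lay within the range of the other libraries, 244 to 1685 CPM. Both measured choroid plexus genes, Kl and Clic6, were highest in Sample_11, with a sum of 163 CPM against 18.9 to 39.0 CPM elsewhere. The sum of 7 astrocyte genes was 4526 CPM in Sample_11 and 3102 to 4420 CPM in the other 9 libraries, and that of 6 oligodendrocyte genes 8515 CPM and 5949 to 8501 CPM, with median differences of 0.05 and 0.17 (log2). Those of 6 microglia and 5 endothelial genes were 0.24 and -0.09. The part of these marker levels in the Day 42 values of Mef2c and the other genes was not tested.

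**Figure D2:**
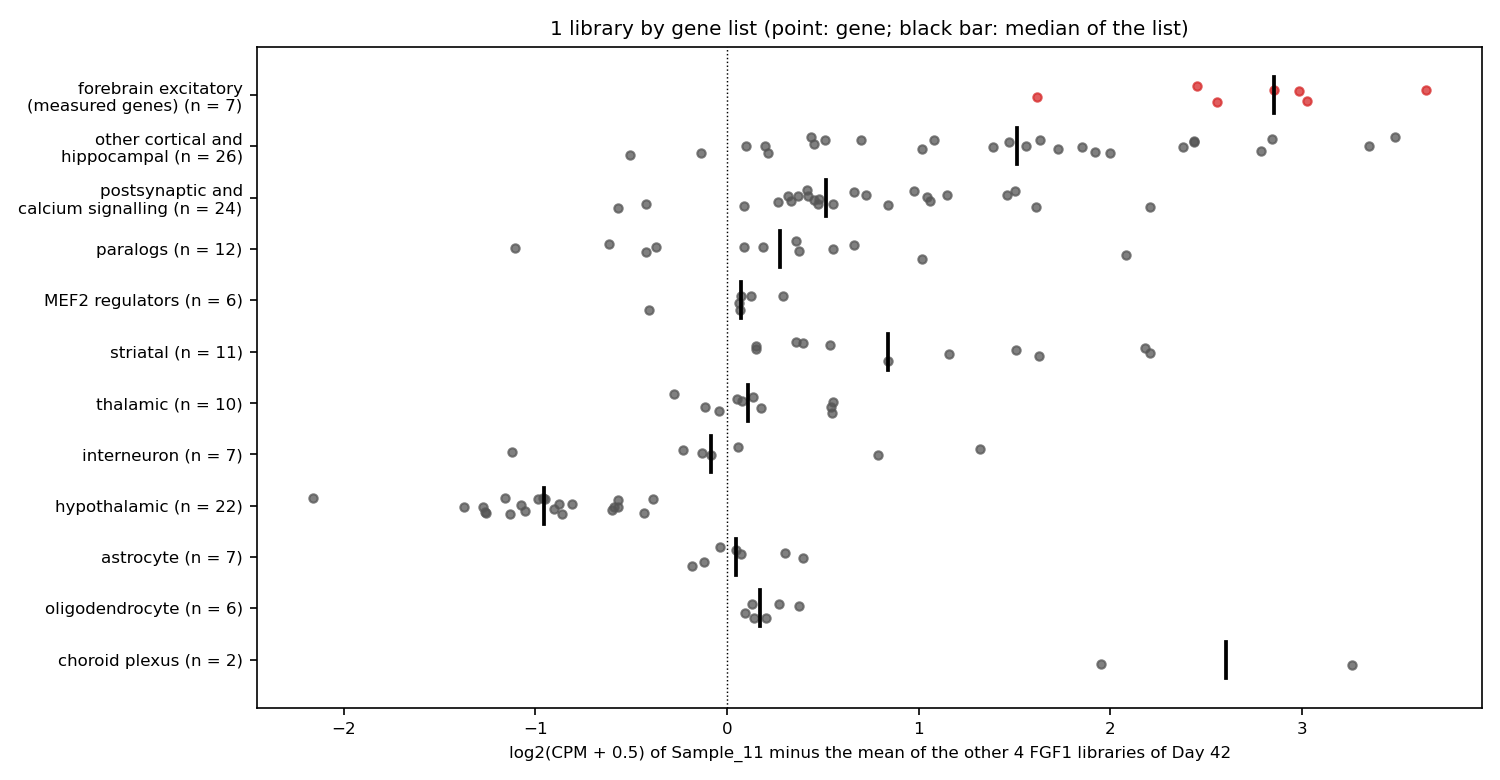
Difference of Sample_11 from the mean of the other 4 FGF1 libraries of Day 42, on the log2(CPM + 0.5) scale, for each gene of 12 lists (points, genes; black bars, list medians). The 7 forebrain excitatory genes have a median of 2.86 and the 22 hypothalamic genes a median of -0.95, with no gene of that list above 0.

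**Figure D3:**
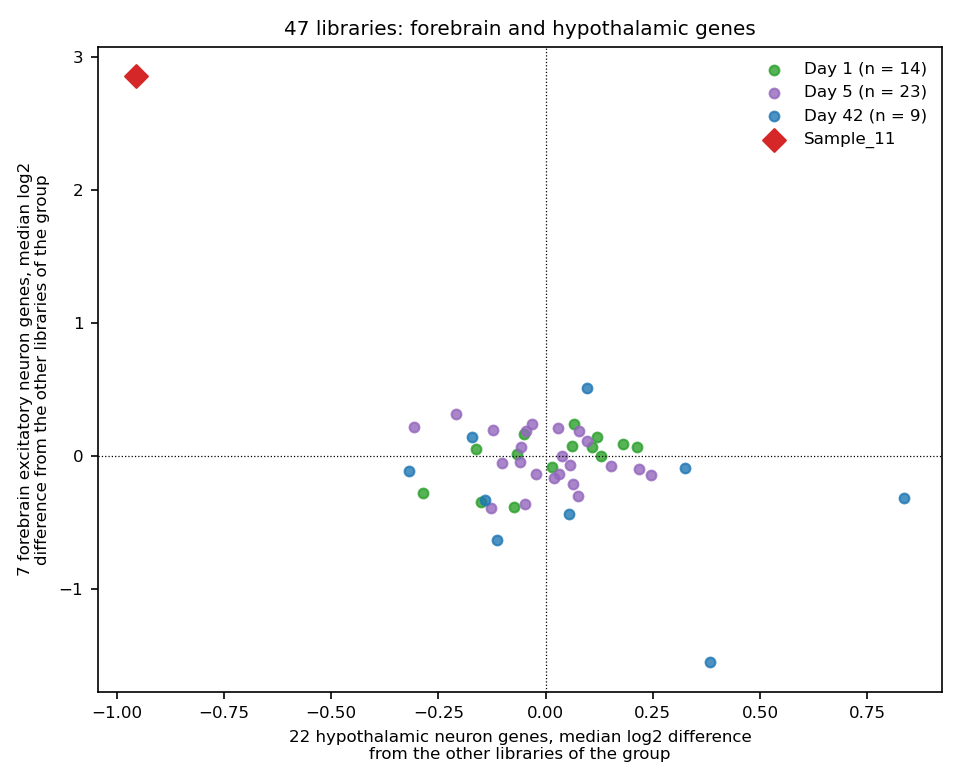
Each of the 47 libraries by the median log2 difference of 22 hypothalamic neuron genes (horizontal) and of the 7 forebrain excitatory genes (vertical) from the other libraries of its group. Sample_11 (red diamond) lies at -0.95 and 2.86, and the other 46 libraries lie between -1.55 and 0.51 on the vertical axis. The lowest, -1.55, is Sample_7, which is set against a group mean that includes Sample_11.

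Ranked by how far Sample_11 lay above the highest of the other 9 libraries, among 11915 genes of at least 5 CPM, Ddn was 6th, Slc17a7 8th, Nrgn 15th, Tbr1 16th, Chrm1 20th, Mef2c 32nd and Camk2a 41st. The 10 other genes with the widest gaps were F5, Car12, Ankrd33b, Egr3, Kl, Itpka, Crym, Wipf3, Inka2 and Enpp2. F5, the coagulation factor V gene, measured 39.9 CPM in Sample_11 and 1.27 to 3.99 CPM in the other 9. Egr3, an activity-dependent transcription factor gene, measured 54.9 CPM against 1.76 to 8.04 CPM. Enpp2, the autotaxin gene known from the choroid plexus, measured 1776 CPM against 219 to 388 CPM. In these 10 genes Sample_11 was between 4.57 and 10.0 times the highest other library.

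Thalamic markers varied between the other Day 42 libraries. Sample_8, Sample_10 and Sample_15, with Slc17a7 at 74.6, 75.2 and 70.1 CPM, stood 1.17, 1.03 and 1.17 (log2) above their groups in the median of the 10 thalamic genes. Sample_9 and Sample_14, with Slc17a7 at 26.2 and 11.2 CPM, stood at -1.88 and -1.499. Sample_7, with the lowest Slc17a7 among the FGF1 mice, stood at -0.42. Sample_16 had the highest Slc17a7 with vehicle, 88.6 CPM, and a thalamic median of 0.08. The part of the thalamic genes in the spread of Slc17a7 was not tested.

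The tested comparisons are those of Days 1 and 5, which the choice of genes did not use. A gene was called with an adjusted p-value under 0.05 (Benjamini-Hochberg over 14221 genes, edgeR quasi-likelihood test) and an absolute log2 fold change above 0.5. On Day 1, 0 of the 7 genes were called, where 19.5% of all genes were, 0 had an unadjusted p under 0.05, and DESeq2 and limma with quality weights also called 0. Without Sample_11, 0 were called and 1 had an unadjusted p under 0.05. The median log2 fold change of the 7 genes was 0.20, beside 0.01 over all genes. The spread of these genes was estimated over all 7 groups, so Sample_11 widened the standard errors on every day, and fits without it are given beside the main ones.

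Mef2c on Day 1 measured 20.2 to 30.2 CPM (median 23.2) in 10 FGF1 mice and 32.4, 31.6, 23.4 and 24.01 CPM in 4 vehicle mice. Its log2 fold change was -0.21 ± 0.26 (SE), with an adjusted p of 0.54 by edgeR. Without Sample_11 the SE was 0.15 and the adjusted p 0.26. The groups overlapped, with 5 FGF1 mice below all vehicle mice.

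Slc17a7 was near the limit of counting on Day 1, at 8 to 94 reads per FGF1 library and 9 to 30 reads per vehicle library. It measured 0.46 to 6.52 CPM (median 0.84) with FGF1 and 0.25, 0.37, 0.70 and 0.79 CPM with vehicle. The log2 fold change of 1.00 ± 0.94 (SE) had an adjusted p of 0.41 by edgeR, and the highest value came from 8 reads in the shallowest library, FGF1 replicate 17. Without that library the log2 fold change was 0.95. Tbr1 was also low, at 5 to 130 reads per FGF1 library and 63 to 121 reads per vehicle library. It measured 1.15 to 4.07 CPM with FGF1 and 1.76 to 3.31 CPM with vehicle, and its log2 fold change was -0.26 ± 0.38 (SE).

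Chrm1 on Day 1 measured 12.1 to 20.1 CPM (median 17.7) with FGF1 and 13.5, 10.4, 14.2 and 14.4 CPM with vehicle. Of the 10 FGF1 mice, 8 lay above all vehicle mice. The log2 fold change was 0.36 ± 0.29 (SE) with an adjusted p of 0.31 by edgeR, 0.073 without Sample_11 and 0.045 in a fit of the Day 1 libraries alone, where the fold change of 0.37 was still below the threshold. The two-sided exact permutation test gave p = 0.020, and 0.28 after adjustment over the 28 tests of these genes on Days 1 and 5. Here the smallest p the test can give was 0.0010.

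Nrgn measured 23.9 to 52.8 CPM with FGF1 and 19.99 to 37.8 CPM with vehicle on Day 1 (log2 fold change 0.36 ± 0.35, SE), and Ddn 22.001 to 36.9 CPM and 19.1 to 29.2 CPM (0.20 ± 0.36, SE). Camk2a measured 432 to 586 CPM with FGF1 and 461 to 584 CPM with vehicle. Its log2 fold change was 0.04 ± 0.16 (SE), and it was -0.01 with the size factors of DESeq2, so no direction is given. The 95% interval of Camk2a ran from -0.28 to 0.35, and that of Mef2c from -0.72 to 0.31.

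Of 26 other cortical and hippocampal genes, 4 were called higher on Day 1 and 2 lower, with a list median of -0.03. Of all 14221 genes, 1631 were called higher and 1145 lower, 19.5% in all, so the share called in this list was near that of all genes. Of those called higher, Lamp5, a lysosome-associated membrane protein gene of cortical neurons, was higher by 1.13, Rgs14, a regulator of G-protein signalling of hippocampal area CA2, by 1.08, and Hs3st2, a heparan sulfate sulfotransferase gene, by 0.87. Nov was lower, with a log2 fold change of -1.15, and so was Cux2, a transcription factor gene of upper cortical layers, with -0.56. The adjusted p-values by edgeR were 0.0023 for Lamp5, 0.00057 for Rgs14, 0.0033 for Hs3st2, 0.0022 for Nov and 5.2e-05 for Cux2. The call of Nov was lost with limma and quality weights, at an adjusted p of 0.062.

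Of 24 genes of postsynaptic and calcium signalling, 5 were called higher on Day 1 and 0 lower, with a list median of -0.06, and this share too was near the 19.5% of all genes. Synpo, the gene of the spine protein synaptopodin, was higher by 1.71 ± 0.20 (SE), at 27.6 to 37.4 CPM with vehicle and 74.1 to 128 CPM with FGF1, and the groups did not overlap. Arc, an activity-dependent gene of the postsynapse, was higher by 1.70 ± 0.35 (SE), Shank3, a scaffold gene, by 0.71 and Ppp1r9b, the spinophilin gene, by 0.62. Camk4, a calcium/calmodulin-dependent kinase gene named here after its value was seen, was the fifth, at 0.57. Their adjusted p-values by edgeR were 1.3e-09 for Synpo, 8.5e-05 for Arc, 0.0019 for Shank3, 0.00030 for Ppp1r9b and 0.0053 for Camk4. The call of Camk4 was lost with limma and quality weights, at an adjusted p of 0.14, and with quantile normalization, at a log2 fold change of 0.39. Without vehicle replicate 28, Ppp1r9b had a log2 fold change of 0.49 and was not called. Glial markers moved on the same day: of 6 oligodendrocyte genes 5 were called lower and 0 higher, of 6 microglia genes 4 higher and 1 lower, and of 7 astrocyte genes 1 higher and 1 lower. Of 8 genes of neurons in general 0 were called, and their summed level was 3257 to 4123 CPM with FGF1 and 4276 to 5268 CPM with vehicle, without overlap. Of 7 cortical interneuron genes 1 was called higher and 1 lower, and their sum was 164 to 195 CPM with FGF1 and 203 to 272 CPM with vehicle, also without overlap. The part of these markers in the levels of the neuronal genes was not tested.

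Of 12 paralogs and 6 MEF2 regulators measured, 1 each was called on Day 1, beside 19.5% of all genes. Among the paralogs Slc17a8 was called lower (-0.62 ± 0.20, SE, adjusted p 0.0088 by edgeR), at 3.99 CPM on average with vehicle and 2.58 CPM with FGF1. Slc17a6 measured 362 ± 49.5 CPM (SD, n = 4) with vehicle and 308 ± 45.9 CPM (SD, n = 10) with FGF1, a log2 fold change of -0.24 that did not pass. Mef2a and Mef2d had log2 fold changes of -0.18 and 0.01, which did not pass. Of the MEF2 regulators, Hdac9 was called lower, at -0.51 ± 0.12 (SE, adjusted p 0.00064 by edgeR), and the other 5 were not called. Without vehicle replicate 28, Hdac9 had a log2 fold change of -0.44 and was not called. Camk2g had an adjusted p of 1.2e-05 with a log2 fold change of -0.29, below the threshold on size.

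On Day 5, FGF1 against non-diabetic vehicle called 0 of the 7 genes, where 1.54% of all genes were called, and 0 had an unadjusted p under 0.05. DESeq2 called 0 and limma with sample quality weights called 1, Ddn. Their median log2 fold change was -0.16, beside -0.01 over all genes, and 6 of the 7 had a value below 0. FGF1 against diabetic vehicle also called 0 of 7, where 2.85% of all genes were called, with 0 at an unadjusted p under 0.05, 0 by DESeq2 and 0 by limma. The median was -0.18. Without Sample_11, 0 of the 7 genes were called in either comparison, and 2 against non-diabetic and 3 against diabetic vehicle had an unadjusted p under 0.05. Of 8 genes of neurons in general, 7 had a value below 0 against non-diabetic and 8 against diabetic vehicle, with medians of -0.15 and -0.13 and 0 called in either. Their summed level was 2370 to 2827 CPM with FGF1, 2883 to 3099.99 CPM with non-diabetic vehicle, where the ranges did not overlap, and 2802 to 3128 CPM with diabetic vehicle. Their part in the values of the 7 genes was not tested. Both comparisons share the 9 FGF1 mice, so their values stand side by side and are not independent.

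After Slc17a7, Ddn had the largest fitted differences of the 7 genes on Day 5. It measured 52.2 to 99.3 CPM (median 62.8) in 9 FGF1 mice, 43.8 to 152 CPM (median 96.2) in 7 non-diabetic vehicle mice and 53.0 to 148 CPM (median 70.4) in 7 diabetic vehicle mice. All FGF1 values lay inside the non-diabetic range. The log2 fold change was -0.56 ± 0.30 (SE) against non-diabetic vehicle, with an adjusted p of 0.36 by edgeR, 0.085 without Sample_11 and 0.027 by limma with quality weights. Against diabetic vehicle it was -0.40 ± 0.30 (SE), with an adjusted p of 0.49. Exact permutation tests gave p = 0.068 and 0.13, both 0.43 after adjustment.

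Striatal markers are given here for the vehicle mice of Day 5 with the highest and lowest Ddn. The FGF1 mice are not included, and no correlation with Ddn over the mice of that day was taken. The 2 non-diabetic vehicle mice with the highest Ddn, at 152 CPM each, stood 0.61 and 0.88 (log2) above their group in the median of 11 striatal genes, and the mouse with the lowest, at 43.8 CPM, stood at -1.01. The diabetic vehicle mouse with the highest Ddn, 148 CPM, stood at 0.84, and the one with the lowest, 53.0 CPM, at -1.05. Against non-diabetic vehicle, the striatal genes had a median log2 fold change of -0.55, with 9 of 11 at an unadjusted p under 0.05 and 0 called, beside 2348 of all 14221 genes at that p. Against diabetic vehicle their median was -0.31, with 1 of 11 at an unadjusted p under 0.05 and 0 called, beside 3097 of all genes. The summed level of the 11 genes ran from 391 to 663 CPM with FGF1 and from 429 to 897 CPM with non-diabetic vehicle. The part of the striatal genes in the level of Ddn was not tested.

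Camk2a on Day 5 measured 102 to 133 CPM (median 121) with FGF1, 104 to 149 CPM (median 139) with non-diabetic vehicle and 127 to 139 CPM (median 131) with diabetic vehicle. Of the 9 FGF1 mice, 8 lay below all diabetic vehicle mice, the nearest of them at 127.4 CPM, which equals the lowest of those vehicle mice at this rounding. The log2 fold change was -0.18 ± 0.14 (SE) against diabetic vehicle, with an adjusted p of 0.52 by edgeR and 0.12 without Sample_11. The exact permutation test gave p = 0.0041, and 0.12 after adjustment over 28 tests. Against non-diabetic vehicle the log2 fold change was -0.16 ± 0.14 (SE), with only 1 FGF1 mouse below all 7 vehicle mice.

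Mef2c on Day 5 measured 79.3 to 96.7 CPM (median 86.6) with FGF1, 80.1 to 109 CPM (median 97.3) with non-diabetic vehicle and 81.9 to 115 CPM (median 87.7) with diabetic vehicle. All 3 groups overlapped. Of 6 microglia genes, a cell type that also expresses Mef2c, 0 were called higher against non-diabetic and 5 against diabetic vehicle, and their part in the level of Mef2c was not tested. The log2 fold changes were -0.15 ± 0.22 (SE) and -0.09 ± 0.22 (SE), with adjusted p-values of 0.84 and 0.88 by edgeR. The 95% interval against non-diabetic vehicle ran from -0.59 to 0.29, and from -0.40 to 0.10 without Sample_11.

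Slc17a7 on Day 5 measured 5.70 to 22.6 CPM (median 12.1) with FGF1. With non-diabetic vehicle it measured 12.0 to 17.4 CPM in 6 mice and 64.3 CPM in 1, and with diabetic vehicle 9.34 to 27.01 CPM in 6 mice and 73.8 CPM in 1. The 2 high vehicle mice were also high in Spp1, at 84.6 and 82.5 CPM where the other mice of their groups reached 24.2 and 32.6 CPM. Cabp7 measured 65.7 and 62.4 CPM in them, against at most 32.5 and 30.6 CPM. Both had low striatal medians, of -1.01 and -1.05, and both stood above their groups in the thalamic median, by 0.40 and 0.95. The log2 fold change of Slc17a7 was -0.68 ± 0.50 (SE) against non-diabetic and -0.85 ± 0.50 (SE) against diabetic vehicle, with adjusted p-values of 0.57 and 0.33. Without these 2 mice it was -0.10 and -0.27.

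For Chrm1, Nrgn and Tbr1 all groups of Day 5 overlapped. Chrm1 measured 12.7 to 16.7 CPM with FGF1, 12.1 to 25.1 CPM with non-diabetic and 8.64 to 19.2 CPM with diabetic vehicle, with log2 fold changes of -0.27 and -0.12. Nrgn measured 29.6 to 40.3 CPM with FGF1, 25.1 to 38.0 CPM with non-diabetic and 21.3 to 39.0 CPM with diabetic vehicle, with log2 fold changes of 0.11 and 0.05. Tbr1, at 12 to 111 reads per FGF1 library, measured 1.504 to 4.32 CPM with FGF1 and 1.71 to 5.27 CPM with non-diabetic and 2.74 to 5.22 CPM with diabetic vehicle, with log2 fold changes of -0.11 and -0.24.

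Of the 26 cortical and hippocampal genes, 24 postsynaptic and calcium signalling genes, 12 paralogs and 6 MEF2 regulators, 1 gene was called on Day 5 against non-diabetic vehicle, where 1.54% of all genes were. Arpp21, a phosphoprotein gene of striatal and cortical neurons, was lower with FGF1 than with non-diabetic vehicle, at 142 ± 22.6 CPM (SD, n = 9) and 211 ± 71.5 CPM (SD, n = 7). Its log2 fold change of -0.57 ± 0.18 (SE) had an adjusted p of 0.0498 by edgeR, and the call was lost under 4 of 11 alternatives. Against diabetic vehicle, 0 of these genes were called, where 2.85% of all genes were. Of the glial markers, 2 of 7 astrocyte and 2 of 6 oligodendrocyte genes were called higher in each comparison. Of the paralogs, Slc17a6 measured 311 ± 38.1 CPM (SD, n = 9) with FGF1 and 321 ± 46.1 CPM (SD, n = 7) with non-diabetic vehicle, Mef2a 176 ± 11.1 CPM and 194 ± 9.67 CPM, and Mef2d 64.7 ± 2.98 CPM and 67.7 ± 4.96 CPM, with the same n. None of these passed.

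The 2 vehicle groups of Day 5, labelled diabetic and non-diabetic, called 0 of the 7 genes with edgeR, DESeq2 and limma, with 0 at an unadjusted p under 0.05. The share of all genes called was 0.0%, with 193 at an unadjusted p under 0.05. Without Sample_11, both counts over the 7 genes were again 0. The 7 log2 fold changes ran from -0.16 (Ddn) to 0.17 (Slc17a7), with a median of 0.01. For Mef2c the value was -0.06 ± 0.24 (SE), with a 95% interval from -0.53 to 0.40.

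In the difference of the FGF1 effect, Day 5 minus Day 1, 0 of the 7 genes were called where 15.8% of all genes were, with 0 at an unadjusted p under 0.05, 0 by DESeq2 and 0 by limma. Without Sample_11, 2 had an unadjusted p under 0.05 and 1 was called. The values ran from -1.67 (Slc17a7) to 0.16 (Tbr1). Chrm1 had a difference of -0.63 ± 0.39 (SE) with an adjusted p of 0.24 by edgeR, and without Sample_11 its SE was 0.23 and its adjusted p 0.033, so it was then called. Ddn had a difference of -0.76 ± 0.48 (SE), with an adjusted p of 0.25 and, without Sample_11, 0.056.

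Of the 26 cortical and hippocampal genes, 1 was called with a higher effect on Day 5 than on Day 1, and 4 with a lower one. Of all 14221 genes, 1035 were called with a higher and 1212 with a lower effect, 15.8% in all. The first was Nov (1.20), and the 4 were Rgs14 (-1.62), Lamp5 (-1.17), Hs3st2 (-0.90) and Wfs1 (-0.60), the wolframin gene of the endoplasmic reticulum. Of the 24 postsynaptic and calcium signalling genes, 5 were called with a lower effect and 0 with a higher one, led by Arc (-1.89), Synpo (-1.64), Camk4 (-0.89) and Shank3 (-0.76). Their adjusted p-values by edgeR ran from 3.3e-06 for Synpo to 0.037 for Hs3st2. Several of these calls were lost when 1 vehicle mouse of Day 1 was left out. Without vehicle replicate 28, the adjusted p-values by edgeR were 0.092 for Nov, 0.068 for Lamp5, 0.086 for Hs3st2, 0.11 for Wfs1 and 0.091 for Shank3. Without replicate 29 they were 0.0502 for Lamp5, 0.061 for Hs3st2 and 0.067 for Wfs1, without replicate 27 0.061 for Hs3st2, and without replicate 30 0.051 for Lamp5. Lamp5 also lost its call without the deepest FGF1 libraries of Day 5, Nov with limma and quality weights, and Wfs1 with those weights and with quantile normalization. Rgs14, Arc, Synpo and Camk4 were called in every alternative run. The preparation differs between these days, and its part in the differences was not tested.

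**Figure D4:**
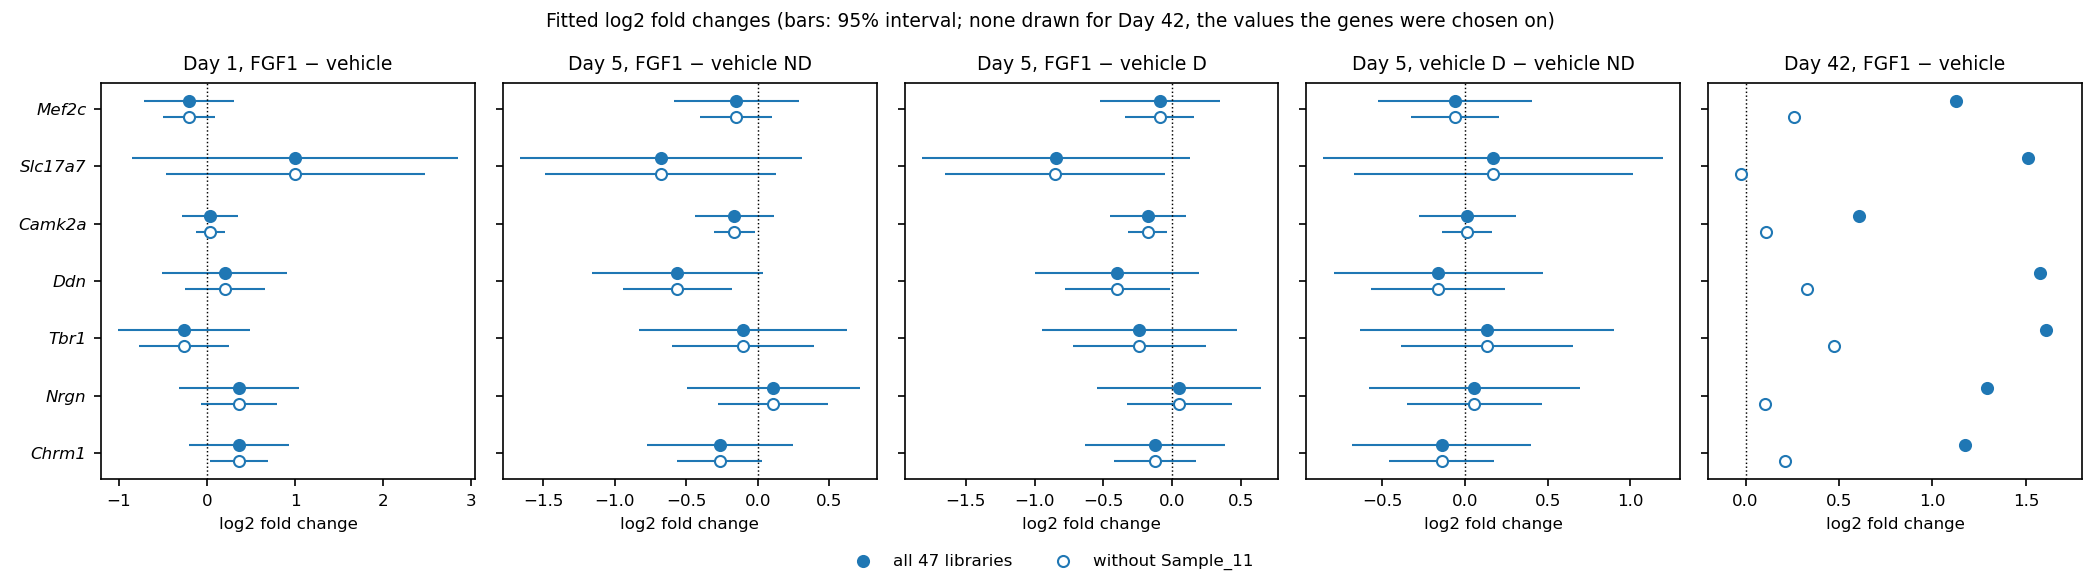
Fitted log2 fold changes of the 7 genes in 5 comparisons, with all 47 libraries (filled) and without Sample_11 (open), and 95% intervals for Days 1 and 5. On Day 42, where no interval is drawn, Mef2c moves from 1.12 to 0.26 when Sample_11 is left out, while on Days 1 and 5 the estimates stay in place and the intervals narrow.

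Per kilobase of exon, the order of the 7 genes differed between the days. In vehicle mice of Day 1 the mean level was highest for Camk2a, at 70.2 CPM per kb, followed by Nrgn (20.8), Ddn (6.89), Chrm1 (2.02), Mef2c (1.77), Tbr1 (0.42) and Slc17a7 (0.098), all in CPM per kb. In non-diabetic vehicle mice of Day 5 Ddn came first, at 26.5 CPM per kb, then Nrgn (21.6), Camk2a (17.5), Mef2c (6.13), Slc17a7 (4.02), Chrm1 (2.63) and Tbr1 (0.62). In vehicle mice of Day 42 it was again Camk2a (67.6 CPM per kb), then Nrgn (18.5), Ddn (11.9), Slc17a7 (9.07), Mef2c (4.17), Chrm1 (2.05) and Tbr1 (1.05). In Sample_11, Camk2a stood at 223 and Slc17a7 at 94.2 CPM per kb. Slc17a6, the VGLUT2 gene, had 67.1, 59.5 and 88.6 CPM per kb in the vehicle mice of Days 1, 5 and 42, above Slc17a7 on each day.

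Between days, Camk2a in vehicle mice was 524 ± 51.1 CPM (SD, n = 4) on Day 1, 131 ± 18.9 CPM (SD, n = 7) on Day 5 and 505 ± 49.6 CPM (SD, n = 5) on Day 42. Mef2c was 27.9 ± 4.80, 96.4 ± 11.7 and 65.5 ± 17.96 CPM in the same mice, and Slc17a7 was 0.53 ± 0.26, 21.7 ± 18.9 and 48.9 ± 30.7 CPM. Day 5 was lowest for Camk2a and highest for Mef2c, and its ranges did not overlap those of Day 1 for either gene. Day and preparation cannot be told apart here. Nrgn, at 30.2 ± 8.81, 31.4 ± 5.15 and 26.9 ± 13.1 CPM, and Chrm1, at 13.1 ± 1.82, 17.05 ± 4.77 and 13.3 ± 3.37 CPM, had overlapping ranges on the 3 days.

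The genes most like the 7 were sought in the 37 libraries of Days 1 and 5, by the correlation of each gene's deviation from its group mean with the mean deviation of the 7, on the log2(CPM + 0.5) scale. Between the 7 genes themselves, the 21 pairwise correlations over these libraries ran from -0.43 to 0.77 with a median of 0.11, and 5 were above 0.5. Within the 14 libraries of Day 1 they ran from -0.76 to 0.85, and within the 23 of Day 5 from -0.81 to 0.88. Some pairs had opposite signs on these days. Mef2c and Ddn had r = -0.62 on Day 1 and 0.88 on Day 5, Mef2c and Camk2a -0.69 and 0.64, and Mef2c and Chrm1 -0.76 and 0.66, so the mean of the 7 holds members that varied in opposite directions. Among 14160 genes with a mean of at least 1 CPM, the highest were Npas2 (r = 0.80), a clock-related transcription factor gene of the forebrain, Ogfod2 (0.79), Camkk2 (0.76), which encodes a kinase that activates calcium/calmodulin-dependent kinases, Mgll (0.74), the monoacylglycerol lipase gene, and Syndig1l (0.73). Ppp2r2c (0.73), Tbc1d8 (0.72), Lmo7 (0.72), Pcdhgc5 (0.71) and Filip1 (0.70) followed. These are correlations over mice whose libraries differ in depth and could differ in dissection. They are given without a p and were ranked over all genes. Slc17a7 enters the mean of the 7 with deviations as large as 2.28 (log2), in FGF1 replicate 17 of Day 1, the shallowest library. Within Day 1 the r of these 10 genes ran from 0.45 (Lmo7) to 0.91 (Ogfod2), and within Day 5 from 0.58 (Ppp2r2c) to 0.90 (Lmo7). On Day 42, 8 of the 10 were highest in Sample_11. Pcdhgc5 measured 56.7 CPM there against at most 21.02 CPM in the other 9 libraries, and Camkk2 159 CPM against at most 81.9 CPM. Ogfod2, at 16.8 CPM, and Tbc1d8, at 25.7 CPM, lay within the range of the others.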

How the data were processed

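The authors aligned the reads with STAR and deposited raw counts per gene for 47 libraries, as whole numbers without normalization. The build is named as Grch38 (release 77) for Mus musculus, and the counting program is not given in the sources used here. Neurod6 and Neurod2 have no row in the table and were not analysed here. Coordinates and exon lengths came from GENCODE M21 (GRCm38), in which 14180 of 14221 genes were found by name.

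From the counts, TMM factors and a quasi-likelihood model with 1 mean for each of 7 groups were fitted to all libraries with edgeR 4.0.16 (R 4.3.3), with the Benjamini-Hochberg adjustment taken over the 14221 genes. Its low-count filter removed 0 genes. A call needed an adjusted p under 0.05 together with a log2 fold change beyond 0.5 in size. Single genes were also compared between mice with exact permutation tests (two-sided, on log2 of CPM plus 0.5, scipy 1.17.1), adjusted over 28 tests. The fits were tested on simulated counts with known changes. Replicates are separate mice.

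The 9 genes and the lists were chosen with earlier results of these data known. Named genes were all 9, every measured paralog, up to 4 called genes per list, direction and comparison, the 10 genes most like the members, and the 10 with the widest gap of Sample_11. Some examples named beyond this rule, such as Mas1 and Camk4, are said to be so. Others, such as Pomc, Spp1 and Cabp7, were also named from their values. Alternatives were DESeq2 1.42.0 and its size factors, limma 3.58.1 with quality weights or quantile normalization, other filters, fits of 1 day, merged vehicle groups, and libraries left out. Without 2 high vehicle mice or the 2 deepest FGF1 libraries of Day 5 were alternatives added after the data were seen. Some results of the lists are not reported here.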

Additional observations from a re-analysis of the deposited data

Results flagged for a closer look

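Each of the 7 genes was examined in each group for a mouse far from the rest of its group (Dixon's test). In the groups of Days 1 and 5, 4 of 35 gene and group pairs were marked, and chance marks about 1 in 20. On Day 42 the genes were chosen by their levels, so the gaps of Sample_11 from the other FGF1 mice are a description and are not set against chance. There Mef2c stood at 404 CPM, Slc17a7 at 508 CPM, Camk2a at 1662 CPM, Ddn at 449 CPM, Tbr1 at 57.0 CPM, Nrgn at 217 CPM and Chrm1 at 90.4 CPM.

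Slc17a7 was marked in 3 groups of Days 1 and 5. FGF1 replicate 17 of Day 1 stood at 6.52 CPM, where the next mouse was at 3.03 CPM, and this level came from 8 reads. One non-diabetic vehicle mouse of Day 5 stood at 64.3 CPM and one diabetic vehicle mouse at 73.8 CPM. Ddn was marked for a low value in vehicle replicate 28 of Day 1, at 19.1 CPM beside 27.4 CPM in the next mouse.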

How the results depend on the processing

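Over the alternatives, 377 of 389 fitted log2 fold changes of the 7 genes on Days 1 and 5 kept their direction and their side of the threshold, 10 turned direction and 2 passed the threshold. The values that turned were all small. Camk2a on Day 1 became -0.0097 with the size factors of DESeq2 and -0.0101 with DESeq2, and ran from -0.0197 (without vehicle replicate 28) to 0.0934 as each mouse was left out. Against diabetic vehicle on Day 5, Nrgn became -0.0286, and between the vehicle groups Camk2a became -0.0493, both without the 2 mice high in Slc17a7, an alternative chosen after seeing the data. Between the vehicle groups Slc17a7 became -0.0107 with quality weights. In Day 5 minus Day 1, Tbr1 became -0.0450 with quantile normalization. As each mouse was left out, Mef2c ran from -0.0254 (without vehicle replicate 27; -0.0056 without 28) to 0.131, and Tbr1 from -0.07345 (without vehicle replicate 30) to 0.261.

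The number of these genes called became 1 with quality weights on Day 5 against non-diabetic vehicle (Ddn) and, in Day 5 minus Day 1, ran from 0 to 1 as single mice were left out, the 1 being Chrm1 without Sample_11. The Day 42 median of 1.29 became 0.39 with quality weights and 0.69 with quantile normalization, and ranged from 0.21 (without Sample_11) to 1.62 as each mouse was left out. The cause was not tested for the other changes. Genes named from the lists lost their call in 28 instances. A minimum of 10 counts in every library removed Slc17a7 and Tbr1. No paired analysis was possible because the groups share no replicate numbers. Depth limits Slc17a7 and Tbr1 on Day 1, with as few as 8 and 5 reads in a library.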
